A study of Mus musculus with 29 samples.

Results

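Of the 110715 regions of 200 bp at which chromatin accessibility was measured by ATAC-seq in 6 mouse retinal cell populations, 731 (0.66%) were open only in blue cones. A region was taken as open in a population when its midpoint lay inside a called peak of both replicate libraries, and as closed when it lay inside a peak of neither. The 731 regions were open in blue cones and closed in green cones, rods, bipolar cells sorted as a whole (pan-BC), ON bipolar cells (ON-BC) and OFF bipolar cells (OFF-BC). They were 1.86% of the 39239 regions open in blue cones, beside 1109 regions open only in green cones, 2390 open only in rods and 655 open in both cone types alone.

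The study compared open chromatin and RNA between photoreceptors and bipolar cells, related neurons of the retina, in sorted cells of adult mice. Cells labelled blue cones were GFP+ photoreceptors at P56 from mice with the Nrl-eGFP transgene on an Nrl knockout background, in which the cells that would become rods take on a cone-like fate, so they stand in for blue cones and are not native blue cones. Rods were Nrl-eGFP cells at P56 with Nrl intact, and green cones were cells expressing Opn1mw-GFP at P56, from a single sort in the libraries used by the rule. Bipolar cells for ATAC-seq came from mice at P42 to P46 that carried GFP at 1 Otx2 allele and YFP under Grm6 control on both alleles (Otx2-GFP+/-; Grm6-YFP+/+), and OFF-BC were double sorted. For RNA, ON-BC and OFF-BC had that genotype at P42 to P48, while pan-BC were labelled Otx2-GFP+/- at P44 to P47, and green cones were not represented. ATAC-seq had 2 libraries per population in the region table, with 4176776 to 12345845 reads in regions, and RNA-seq had 3 libraries per population, with 12329548 to 26266746 reads in genes. Photoreceptor libraries had been made for a previous study by this laboratory, and cell class, age, genotype and study cannot be told apart where photoreceptors are set beside bipolar cells. The study calls its replicates biological, but the labels do not say whether each came from separate animals, and p-values measure the spread between these libraries.

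Cones detect light of different wavelengths through different opsins, and blue cones of the mouse carry the short-wavelength opsin, whose gene is *Opn1sw*. NRL, a leucine zipper factor, directs photoreceptor precursors to the rod fate, and without it they develop as cone-like cells rich in *Opn1sw*. Open chromatin marks the promoters and distal elements at which transcription factors bind, and in the retina many such elements hold sites for homeodomain factors: those of the K50 class, such as CRX and OTX2, prefer TAATCC, and those of the Q50 class, such as RAX and LHX factors, prefer TAATTA.

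The RNA of the cells bore the blue cone label with limits. *Nrl*, the deleted gene, had 657.34, 764.13 and 485.53 normalized counts in the blue cone libraries, and 11475.98, 16598.79 and 14468.92 in rods, a difference of -4.49 ± 0.22 (log2, SE, n = 3 per group) with an adjusted p of 6.56e-10 in limma's test against a change of 1. *Opn1sw* had 1108421.50, 1302222.97 and 1256123.63 normalized counts in blue cones and 7389.33 to 7589.51 in rods. *Opn1mw*, the opsin gene of green cones, was also present, at 41110.62, 50464.56 and 58221.25 in blue cones and 490.94 to 572.62 in rods. Of the 11 genes of the rod phototransduction list, 8 were lower than in rods, while others such as *Sag* and *Gngt1* were not called.

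The sequences of 8 of the 731 regions are printed first, on the plus strand of mm10 and read from RefSeq's GRCm38.p6, with TAATTA, the Q50 word, and TAATCC or its reverse complement GGATTA, the K50 word, in capitals. The first 4 were among the 10 regions whose accessibility stood farthest above every other population, 5 of which hold TAATTA, and are shown for that word. The other 4 lie nearest to genes whose RNA is described further on, 2 of them cone phototransduction genes, and 3 of them hold neither word. Each line is named after the gene whose transcription start site (TSS) lies closest.
Dnah5, chr15:28575678-28575878: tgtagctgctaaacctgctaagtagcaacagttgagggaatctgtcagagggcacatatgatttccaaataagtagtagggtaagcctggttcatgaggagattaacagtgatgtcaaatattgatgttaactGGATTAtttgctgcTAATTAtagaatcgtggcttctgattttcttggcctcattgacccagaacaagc
Zfp503, chr14:21962787-21962987: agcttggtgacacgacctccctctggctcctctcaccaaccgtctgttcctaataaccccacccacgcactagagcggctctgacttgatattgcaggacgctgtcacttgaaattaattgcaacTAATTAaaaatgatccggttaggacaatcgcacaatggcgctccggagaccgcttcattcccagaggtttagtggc
Mir3962, in an intron of Plxna2, chr1:194786960-194787160: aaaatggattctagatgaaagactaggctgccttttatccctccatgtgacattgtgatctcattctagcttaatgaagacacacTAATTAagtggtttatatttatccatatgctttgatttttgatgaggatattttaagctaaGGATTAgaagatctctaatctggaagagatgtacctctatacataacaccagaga
Pard3b, chr1:61535987-61536187: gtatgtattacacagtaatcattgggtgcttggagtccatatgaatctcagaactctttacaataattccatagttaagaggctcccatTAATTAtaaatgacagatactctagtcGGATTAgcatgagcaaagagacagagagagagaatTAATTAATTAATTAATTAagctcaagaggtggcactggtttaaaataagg
Opn1sw, chr6:29382574-29382774: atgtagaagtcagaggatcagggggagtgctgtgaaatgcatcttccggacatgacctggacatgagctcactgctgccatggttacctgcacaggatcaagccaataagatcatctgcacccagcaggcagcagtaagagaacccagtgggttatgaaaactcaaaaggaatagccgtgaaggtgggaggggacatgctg
Pde6h, chr6:136965743-136965943: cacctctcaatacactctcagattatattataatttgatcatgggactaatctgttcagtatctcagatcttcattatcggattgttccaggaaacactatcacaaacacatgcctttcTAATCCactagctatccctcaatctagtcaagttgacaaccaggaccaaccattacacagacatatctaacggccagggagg
Ece1, intron, chr4:137918032-137918232: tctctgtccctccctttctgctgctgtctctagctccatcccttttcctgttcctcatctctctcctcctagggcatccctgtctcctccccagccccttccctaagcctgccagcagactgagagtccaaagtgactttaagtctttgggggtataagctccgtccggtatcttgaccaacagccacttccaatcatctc
Ffar4, chr19:38096627-38096827: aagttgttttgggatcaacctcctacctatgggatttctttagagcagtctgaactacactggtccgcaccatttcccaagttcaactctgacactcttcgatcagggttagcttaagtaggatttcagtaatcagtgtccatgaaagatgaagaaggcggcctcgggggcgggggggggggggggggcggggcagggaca

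In the region near *Dnah5*, which encodes an axonemal dynein heavy chain, the TAATTA followed shortly after a GGATTA. Its size-factor normalized ATAC-seq counts were 49.22 and 56.37 in blue cones, 0 in both green cone and both rod libraries, and at most 5.86 in a bipolar library, the largest difference of any member (log2 3.93). The region near *Zfp503*, a zinc finger repressor gene, had 71.23 and 122.85 in blue cones and at most 10.71 elsewhere. The region near *Mir3962*, inside the plexin gene *Plxna2*, had 90.66 and 95.39 against at most 7.68. In the region nearest to the cell polarity gene *Pard3b*, 102737 bp upstream of it, TAATTA stood 5 times, 4 of them in a tandem run, beside 32.38 and 46.97 counts in blue cones and at most 3.07 elsewhere. In all 4 regions the blue cone libraries lay above the other 10 without overlap. The regions were picked by a closely related measure, the log2 difference from the highest other population, so this was built into the choice.

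Across the 731 regions the median normalized count was 31.1 and 28.9 in the blue cone libraries. It was 9.99 and 11.3 in green cones, 6.74 and 7.79 in OFF-BC, 5.60 and 4.56 in pan-BC, 3.12 and 4.07 in rods, and 2.99 and 2.93 in ON-BC. The 731 were chosen by the peak calls of these libraries, and closed regions were not empty: green cones, and after them OFF-BC, held the most signal of the 5 closed populations. These medians stand for 24 and 40 reads per region in the blue cone libraries and 2 to 13 in the others, so single values carry counting error of several reads. The regions were weak among those open in blue cones, whose medians were 69.9 and 72.3, and the median −log10 q of their peaks was 6.31 and 13.2, against 20.4 and 43.7 for all regions open in blue cones. As these values chose the regions, they are given without a test.

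**Figure D1:**
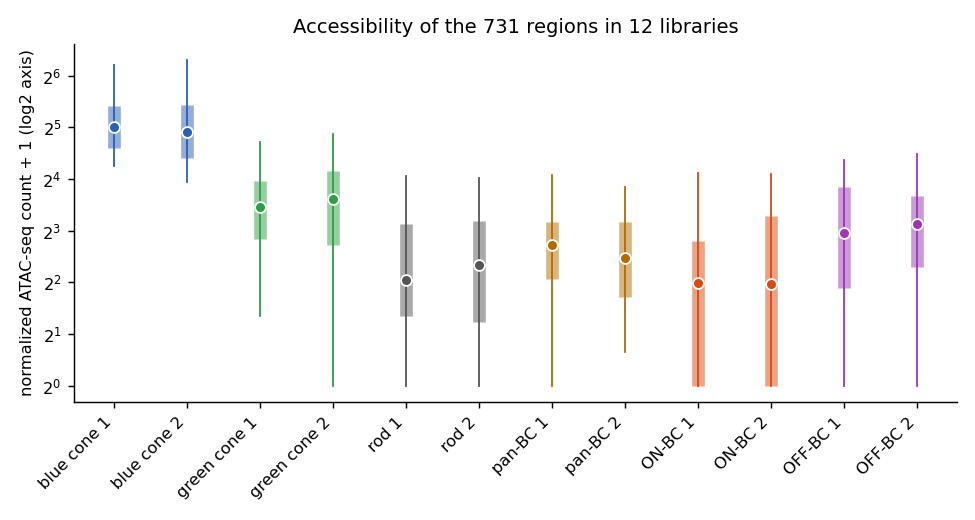
Size-factor normalized ATAC-seq counts + 1 (log2 axis) of the 731 regions open only in blue cones, by library. Points are medians over the regions, boxes span the quartiles and lines the 5th to 95th percentile, with median counts of 31.1 and 28.9 in blue cones and 2.93 to 11.3 in the other 10 libraries.

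Each region was set against whichever other population had the highest level there, as the difference of the mean log2(count + 1) over the libraries. The median difference was 1.24, with a 5th percentile of 0.216 and a 95th of 2.77, and the median SD between the blue cone libraries was 0.219 on the same scale. It was 2 or more in 140 regions, under 1 in 274, and below 0 in 12, where some other population had the higher count although no peak was called in it. The highest other population was green cones in 374 regions (51.2%) and OFF-BC in 178 (24.4%), and rods in 69, ON-BC in 58 and pan-BC in 52. Both blue cone libraries exceeded all 10 others in 619 of the 731 regions (84.7%), beside 4.97% of all regions, a share the rule itself raises.

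How far the set depends on the threshold is seen at its edges. The member with the lowest peak value, near *Gm32168*, had a −log10 q of 1.33 in its weaker blue cone library and normalized counts of 24.61 and 26.02 in blue cones. Just outside, 2173 regions lay in a peak of a single blue cone library and of no other population, with medians of 15.5 and 18.1 in the blue cone libraries. A further 409 regions open in blue cones missed the set because of a peak in a single green cone library, and 139 because of a single rod library. Leaving out blue cone replicate 1, so that a peak in replicate 2 was enough, gave 2548 regions, and leaving out green cone replicate 1 gave 1097.

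Green cones were also sorted in a double sort, in libraries numbered 3 and 4, which the rule did not use and for which only peaks were at hand. Of the 731 regions, 139 (19.0%) lay in a peak of replicate 3 and 19 (2.6%) in a peak of replicate 4, 9 in both and 149 (20.4%) in either. Over all 110715 regions the shares were 40% and 27.4%, and over those open in blue cones 79.0% and 67.3%, all above the members. They were 69.0% and 30.2% for regions open only in green cones, 80.9% and 53.7% for those open in both cone types alone, and 4.1% and 0.5% for those open only in rods. The regions open only in blue cones thus stood between those of rods and those of green cones. The 139 regions in a peak of replicate 3 had a median single-sorted green cone level of 12.8, against 9.48 in the other 592. Replicate 4 had fewer peaks altogether, 28025 against 41824 in replicate 3.

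The regions lay mostly far from promoters. A midpoint within 1000 bp upstream to 100 bp downstream of a RefSeq TSS was found for 37 of 731 (5.06%), against 32.6% of the regions open in blue cones and 14.9% of all regions, and for 2.07%, 2.80% and 3.05% of the regions open only in green cones, only in rods and only in both cone types. The median distance to the nearest TSS was 30068 bp, and 587 regions had 1 within 100 kb. Introns held 359 (49.1%), intergenic sequence 337 (46.1%), coding exons 15, 5′ UTRs 8, 3′ UTRs 5 and noncoding exons 7. Their median GC content was 45.3%, lower than the 48.3% of the regions open only in rods, the 49.8% of those only in green cones and the 55.2% of all regions open in blue cones. By chromosome they made up 1.45% to 2.40% of the regions open in blue cones on most autosomes and X, but 0.89% on chromosome 7, with 22 regions, and 1.09% on chromosome 17, with 18. Regions were nearly all separate peaks: they fell in 729 peaks of blue cone replicate 1 and 727 of replicate 2.

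The regions open only in blue cones held the Q50 homeodomain word more often than each set they were compared with. TAATTA, which is its own reverse complement, stood in 147 of the 731 (20.1%), in 5.22% of all regions, 4.51% of those open only in green cones, 5.06% of those open only in rods, and 14.4% of those open only in both cone types. It occurred more than once, overlaps counted, in 35 regions (4.79%), against 0.42% of all regions. The K50 word TAATCC, read on both strands, stood in 257 (35.2%), in 21.8% of all regions, 27.1% of those only in green cones, 36.9% of those only in rods and 262 of the 655 only in both cone types. Before GC content was considered, K50 was therefore more common in each photoreceptor set than in all regions. Q50 was common in the members and, less so, in the regions open only in both cone types. Both words stood together in 63 regions (8.62%), and neither in 390 (53.4%).

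Low GC content moves with A- and T-rich words, so the shares were set side by side within classes of GC content. Among regions under 40% GC, TAATTA stood in 36.6% of the 142 members and 13.5% of all regions. From 40% to 45% it stood in 23.0% and 9.6%, from 45% to 50% in 16.5% and 6.1%, from 50% to 55% in 13.4% and 3.4%, and from 55% up in 2.3% and 1.1%. The share was higher in the members than in all regions in every class, with only 2 members holding the word in the last. Regions open only in both cone types had shares closer to the members, and slightly higher ones from 40% to 45% GC, at 24.2%, and from 55% up, at 2.5%. The K50 word was less even across these classes. In members and all regions it stood in 44.4% and 33.6% under 40% GC, and in 48.8% and 32.3% from 40% to 45%. From 45% to 50% the shares were 29.7% and 28.9%, and from 50% to 55% they were 30.4% and 21.5%. From 55% up they were 4.7% and 7.2%. Regions open only in green cones had 33.3% from 40% to 45%, near all regions, and 15.1% from 55% up. Against the 84338 regions outside promoters with a GC content of 36.1% to 61.2%, members included, TAATTA ranked 3 of the 2080 words of 6 letters by difference in share, at 20.1% and 6.1%. Words ahead of it were AATTAA, which can overlap it, and AGATTA.

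**Figure D2:**
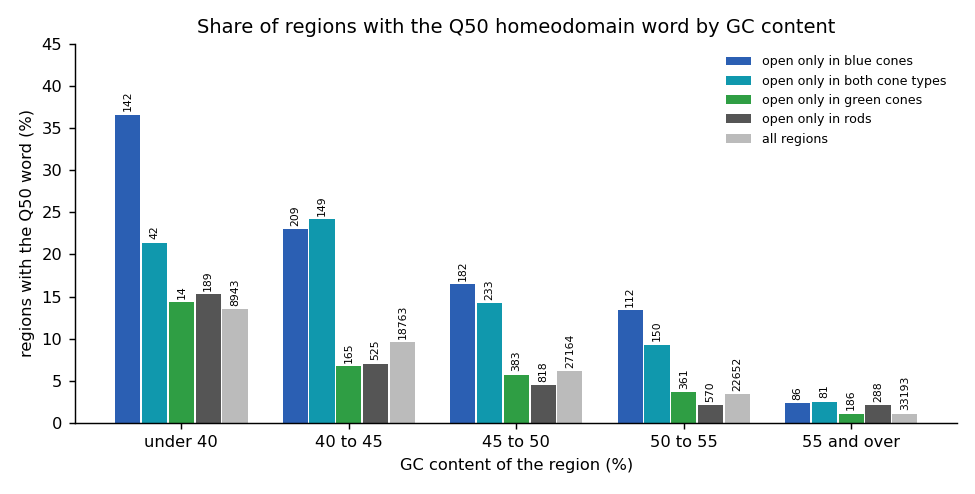
Share of regions holding the Q50 word by class of GC content (x axis, percent), for the regions open only in blue cones and the compared sets, with the number of regions above each bar. Members lay above all regions in each class, from 36.6% against 13.5% under 40% GC to 2.3% against 1.1% from 55% up.

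The word also had a place within the regions. Counted along 600 bp around the midpoints, TAATTA occurred 7.11 times per 100 regions in the 40 bp from −20 to +20 and again from +20 to +60, and 1.23 to 2.46 times per 40 bp beyond 100 bp on either side. In the regions open in both cone types alone the highest value was 4.28. In those open only in green cones no central rise was seen, with 0.902 matches from −20 to +20. The K50 word rose at the centre of every set, to 13.8 matches per 100 regions in the members, 19.2 in regions of both cone types and 17.99 in rods. Green cone regions reached 8.30, below the 9.11 over all regions.

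**Figure D3:**
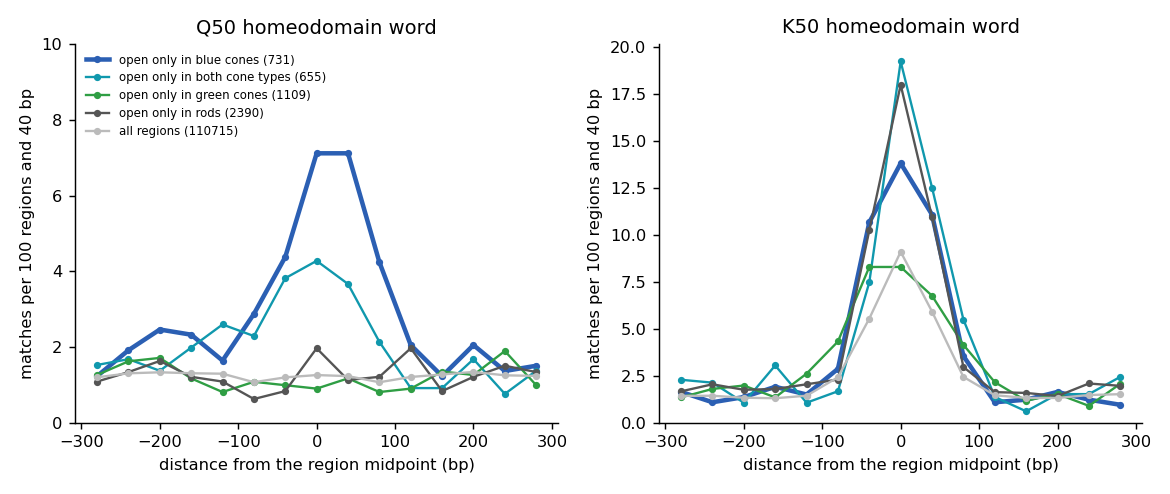
Matches per 100 regions of the Q50 and the K50 word in bins of 40 bp by distance from the region midpoint (bp), for the regions open only in blue cones and the compared sets. The Q50 word reached 7.11 in the members near the midpoint and stayed near 1 in the regions open only in green cones.

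Within the set, regions that stood farther above the other populations held TAATTA more often. It was in 54 of the 140 regions (38.6%) with a log2 difference of 2 or more and in 38 of the 274 (13.9%) with one under 1, whose median GC contents were 42.8% and 48.0%. The part of GC content in this difference was not tested. Of the 149 regions in a peak of a double-sorted green cone library, 13 (8.72%) held the word, and of the 582 in none, 134 (23.0%). Regions with and without it had nearly the same median blue cone count, 30.2 and 29.2. The share was 14.3% in the 2173 regions with a peak in a single blue cone library, and 16.6% to 20.3% in the sets that leave out a library in turn.

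Of the 13 other words searched, each on both strands, the nuclear receptor word AGGTCA and the AP-1 word TGANTCA set the members apart from the green cone regions. AGGTCA stood in 16.1% of the members and 15.7% of all regions, but in 31.5% of the regions open only in green cones, 23.3% of those only in rods and 24.3% of those only in both cone types. TGANTCA stood in 3.56% of the members and 7.12% of all regions, but in 30.8% of the regions only in green cones and 16.0% of those only in both cone types. The bHLH words CAGATG and CAGCTG, the latter its own reverse complement, stood in 21.6% and 12.7% of the members and 22.4% and 18.1% of all regions. The MAF word TGCTGA stood in 14.8% and 17.9%, the SOX word ACAATG in 10.7% and 7.82%, the NFI word TTGGCA in 9.85% and 10.6%, and the CTCF word AGGGGGC in 3.83% and 7.09%. The words TGTGGTT of RUNX (3.28% and 3.5%), ACATTCC of TEAD (2.46% and 2.17%), ATCAATA of ONECUT (1.64% and 0.97%), CTAAAAATA of MEF2 (0.55% and 0.87%) and GAGGAAGT of PU.1 (0.55% and 1.15%) were rare in both. A match describes letters and is not a measured binding site, and the words were counted separately where they overlap.

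The question of whether genes near these regions were expressed at higher levels in blue cones was addressed with the RNA libraries. The 731 regions had 674 nearest genes, of which 616 had a row of RNA values, 434 passed the filter on low counts and 182 did not, and 135 were at 0 in all 3 blue cone libraries. By limma's test against a log2 change of 1 with Benjamini-Hochberg adjustment over 14024 genes, 127 of the 434 (29.3%) were higher in blue cones than in rods, where 11.3% of all genes tested were. Lower than in rods were 25 (5.76%), beside 4.63% of all genes. Against pan-BC, 88 (20.3%) were higher, beside 13.7%, and 105 (24.2%) lower, beside 22.7%. The shares stood above the background for genes higher in blue cones, most of all for the 43 (9.91%) higher than in both rods and pan-BC, beside 2.74% of all genes. Lower than in both were 10 (2.3%), beside 1.27%. Higher than in rods were 138 with edgeR and 119 with DESeq2, beside 13.2% and 10.8% of all genes. Both comparisons use the same blue cone libraries. The filter keeps a gene that is high in 1 group only, so the 434 are not all nearest genes.

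**Figure D4:**
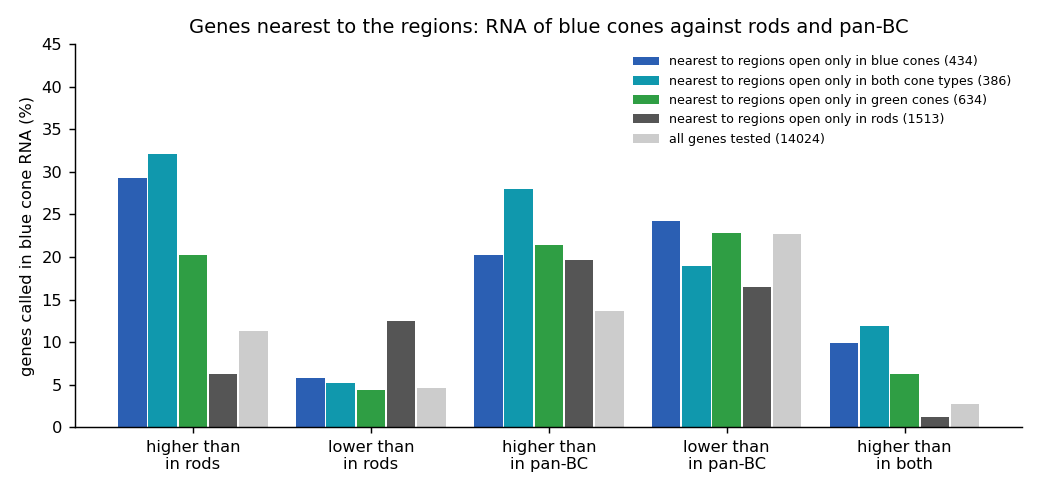
Share of tested nearest genes called higher or lower in blue cones than in rods or pan-BC (limma), for the regions open only in blue cones, the compared sets and all genes. For the members, 29.3% were higher than in rods beside 11.3% of all genes, and 24.2% were lower than in pan-BC beside 22.7%.

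The median log2 difference between blue cones and rods was 0.55 over the 434 nearest genes and 0.00 over all genes tested, and between blue cones and pan-BC it was 0.00 and -0.16. Genes nearest to regions open in both cone types alone were higher than in rods in 32.1% of cases, those of regions open only in green cones in 20.2% and those of regions open only in rods in 6.21%. For the same sets, in that order, 27.98%, 21.45% and 19.63% were higher than in pan-BC, beside 20.28% for the members. Higher than in both were 11.92%, 6.31% and 1.26%, beside 9.91% for the members. The members' shares were thus not the highest, as regions open in both cone types alone exceeded them. Genes nearest to any region open in blue cones outside promoters, members there included, were higher than in rods in 14.51% of cases. Of the same genes 16.83% were higher than in pan-BC and 3.78% higher than in both, closer to the members than the shares of all genes tested. For the 37 members in promoters, 9 of 18 tested genes were higher than in rods and 6 higher than in both. By distance the share higher than in rods was 36.3% within 10 kb, 29.0% from 10 to 50 kb, 22.2% from 50 to 100 kb and 33.3% beyond 100 kb. For the regions with TAATTA it was 20 of 87 genes (23.0%), and for those without it 111 of 355 (31.3%).

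The genes named next are the 15 with the largest smaller difference among those higher than in both rods and pan-BC and within 100 kb of a member, the 5 most reduced ones, the 8 with the most members, and those of the phototransduction and photoreceptor transcription factor lists. RNA values are size-factor normalized counts, and differences are on the log2(count + 1) scale with the SE of the fit. In sorted bulk RNA, fewer cells of a type and less RNA per cell cannot be told apart.

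Among phototransduction genes, *Opn1sw* had 2 regions, 2161 bp upstream of its TSS and 7861 bp downstream in a coding exon of *Calu*. The upstream region had 64.76 and 45.53 ATAC-seq counts in the blue cone libraries, against 17.67 and 19.72 in green cones, 0 in both rod libraries, and 17.51 and 25.31 in OFF-BC. The opsin's RNA was higher by 7.35 ± 0.64 than in rods (adjusted p = 3.73e-07) and by 4.96 ± 0.64 than in pan-BC (adjusted p = 3.79e-05). It was also present at 28146.62 to 50740.44 in pan-BC, and at 4477.28, 4314.32 and 55812.56 in OFF-BC replicates 1, 2 and 3. The paper describes low-level photoreceptor contamination of its sorted bipolar cells, whose part in these counts was not tested. *Pde6h*, the inhibitory subunit of the cone phosphodiesterase, had a region 11320 bp downstream of its TSS whose blue cone counts were 22.02 and 41.91, against 17.67 and 2.82 in green cones. Its RNA was 23631.03, 30454.48 and 40607.29 in blue cones, 266.92 to 342.14 in rods and 1189.34 to 2058.17 in pan-BC, without overlap. Of the 22 genes of the cone phototransduction list, all tested, 11 were higher and 4 lower than in rods, and 18 higher and 1 lower than in pan-BC, and 3 were nearest to a member, as were 434 of all 14024 genes tested.

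**Figure D5:**
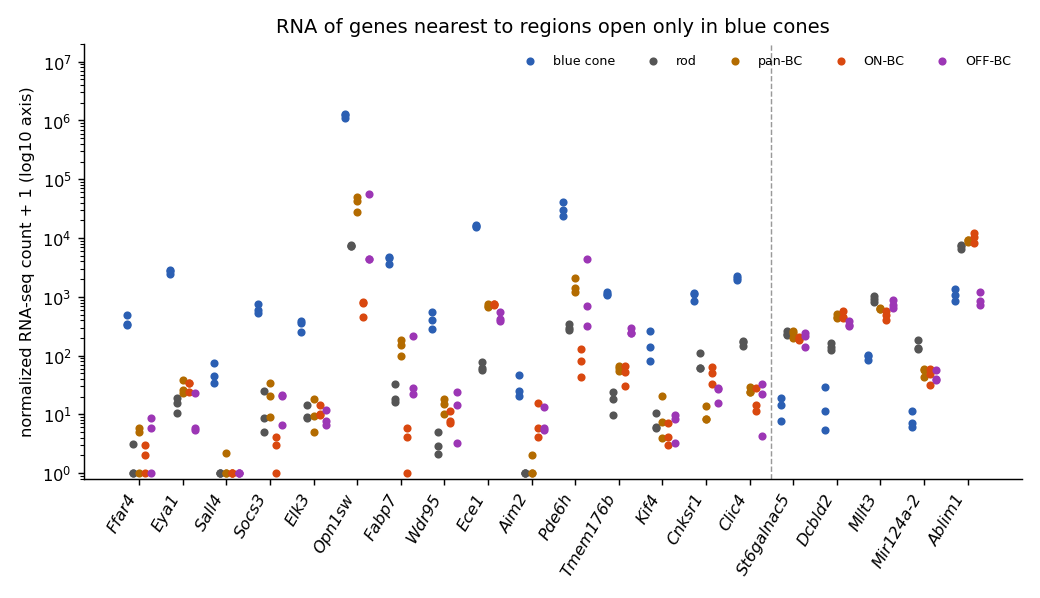
RNA of named genes nearest to the regions open only in blue cones, as size-factor normalized counts + 1 per library (log10 axis) in the 5 populations (n = 3 each), with genes higher in blue cones left of the dashed line and lower ones right of it. For Opn1sw and Ece1 the blue cone libraries lay far above the others, at 1108421.50 to 1302222.97 and 15571.90 to 16415.37.

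Several genes near the regions encode transcriptional regulators. *Eya1*, a coactivator of homeodomain factors in eye development, had 2848.21, 2721.89 and 2416.57 in blue cones and at most 36.71 in any other library, with differences of 7.5 ± 0.44 from rods and 6.54 ± 0.44 from pan-BC (adjusted p = 2.21e-09 and 9.75e-09). The region 84672 bp into its gene was, by contrast, only slightly more open than in green cones, at 23.31 and 30.35 against 16.90 and 19.72. *Sall4*, a zinc finger gene of stem cells and development, had a region 94 bp from its TSS with a TAATTA, at 68.64 and 87.44 against 14.60 and 22.53 in green cones. Its RNA was 72.95, 33.39 and 43.67 in blue cones and 0 in every rod library, at least 48.8-fold higher by a floor of 3 reads over the rod libraries. *Elk3*, an ETS factor gene, had 361.76, 379.41 and 253.13 in blue cones and at most 17.02 elsewhere, and its region, in an intron of *Cdk17*, was among the 10 farthest above the other populations. *Alx4*, a homeobox gene of the Q50 class, had 3 members, the nearest 213 bp from its TSS, and low RNA of 27.08, 13.66 and 23.68 against 0.97 to 1.08 in rods (adjusted p = 0.0193), a call that was lost without blue cone replicate 1 or 3 or rod replicate 1. Its call against pan-BC (log2 3.22 ± 0.76, adjusted p = 0.0149) was lost without pan-BC replicate 3.

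Other factors near members were not higher in both comparisons. *Lhx4*, a LIM homeodomain factor of cones and bipolar cells, had 561.07, 538.76 and 511.44 in blue cones, above the 16.39 to 24.86 of rods (log2 4.73 ± 0.20, adjusted p = 8.94e-11) and below the 5384.79 to 5953.74 of pan-BC (-3.40 ± 0.20, adjusted p = 1.64e-08). *Tbx2*, a T-box gene that promotes the short-wavelength cone fate in other vertebrates, had a region 5233 bp downstream in its coding sequence at 50.51 and 57.81 against 25.36 and 14.08 in green cones. Its RNA was 9.03, 1.52 and 0.74 in blue cones and 2.05 to 6.79 in rods, overlapping, and 595.86 to 629.47 in pan-BC. *Meis2* was 1493.67 to 1812.06 in blue cones and 896.50 to 1228.21 in rods, a difference of 0.62 ± 0.16 that did not pass the test against 1. *Sall1* lay 472691 bp from its member, had at most 7.40 in a blue cone library and was not tested. *Esrrg*, an orphan nuclear receptor gene with 3 members, had 1915.49 to 2414.25 in blue cones and 1398.11 to 2062.04 in rods, which overlapped. Of the 31 tested genes among the 38 of the photoreceptor transcription factor list, 8 were higher and 7 lower than in rods, 15 higher and 6 lower than in pan-BC, and 4 were nearest to a member.

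Among genes of signalling and lipid binding, *Ece1*, the endothelin-converting enzyme, had 3 regions in its introns, at 2661, 8373 and 14433 bp upstream of the nearest TSS. They had 49.22 and 62.87, 69.94 and 83.11, and 75.12 and 68.65 ATAC-seq counts in blue cones, and the green cone libraries lay at 17.67 and 29.57, 9.22 and 21.12, and 23.05 and 23.94. Its RNA was 16415.37, 15802.42 and 15571.90 in blue cones, 56.27 to 75.65 in rods and 665.79 to 745.13 in pan-BC, differences of 7.95 ± 0.13 and 4.51 ± 0.13 (adjusted p = 2.70e-16 and 1.39e-12). Spread between libraries was small beside either difference. *Ffar4*, a receptor for long-chain fatty acids, with a region 352 bp upstream of its TSS, had 327.16, 342.99 and 498.86 in blue cones and at most 7.72 elsewhere. *Fabp7*, which binds fatty acids, had 3665.74, 4609.83 and 4695.48 in blue cones and 15.52 to 31.76 in rods. *Socs3*, an inhibitor of cytokine signalling, had 750.60, 585.81 and 535.86 in blue cones and at most 32.97 elsewhere, and a region 5127 bp upstream at 95.84 and 71.54 against at most 24.14. All were called higher than in both rods and pan-BC.

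The rest of the 15 were *Wdr95*, *Aim2*, *Tmem176b*, *Kif4*, *Cnksr1* and *Clic4*. *Tmem176b* encodes a membrane protein of immune and other cells and had 2 regions at its TSS, 8 bp downstream and 46 bp upstream. Its RNA counts were 1080.77 to 1207.28 in blue cones, 8.73 to 22.69 in rods, 54.25 to 64.56 in pan-BC and 239.08 to 290.59 in OFF-BC. *Aim2*, a cytosolic DNA sensor of the inflammasome, had 45.13, 23.52 and 19.24 in blue cones. It was 0 in every rod library, so blue cones were at least 28.6-fold higher by the same floor. ON-BC had 3.10 to 14.36 and OFF-BC 4.41 to 12.29, nearer to the lowest blue cone library. The intronic region of *Aim2* was open at 69.94 and 62.15 against at most 17.60. *Kif4*, a mitotic kinesin gene, had 264.74, 138.86 and 81.42 against at most 19.58, the widest relative spread of these genes in blue cones along with *Aim2*. *Clic4* and *Cnksr1* differed more from pan-BC (log2 6.35 and 6.70) than from rods (3.68 and 3.79).

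Of the 8 genes with the most members, *Ece1* was also among the 15 with the largest differences in RNA. It and *Alx4* were the ones called higher than in both rods and pan-BC. *Diras2*, a small GTPase gene, was nearest to 5 members, from 9746 bp upstream to 123661 bp downstream, 2 of them 337 bp apart. It had 794.22, 831.67 and 829.70 in blue cones, above the 15.52 to 22.69 of rods (log2 5.43 ± 0.13, adjusted p = 2.72e-14) and below the 1631.64 to 1892.45 of pan-BC, a difference that did not pass the test against 1 (-1.14 ± 0.13, adjusted p = 0.34). *Mtus2*, which encodes a microtubule-associated protein, had the same order, with 1154.92 to 1368.82, 37.84 to 103.74 and 2885.10 to 3517.57, and its difference from pan-BC likewise did not pass (adjusted p = 0.204). *4930556N09Rik*, nearest to 4 members, was at 0 in all blue cone libraries, *Gm16214*, with 3, had no row of RNA values, and *Zfand5*, with 3, passed the test against neither rods (0.79 ± 0.15) nor pan-BC (0.25 ± 0.15). In all, 46 genes were nearest to more than 1 member.

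Some genes beside a region open only in blue cones had less RNA there than in both other populations. *St6galnac5*, a sialyltransferase gene, had 18.05, 13.66 and 6.66 in blue cones and 195.77 to 260.26 in rods and pan-BC. *Dcbld2*, which encodes a membrane receptor-like protein, fell to 27.83, 10.62 and 4.44 from 123.22 to 159.80 in rods and 440.83 to 501.65 in pan-BC. *Mllt3*, a chromatin reader gene of the super elongation complex, had 81.98 to 101.40 in blue cones, 826.64 to 1013.10 in rods and 617.37 to 637.46 in pan-BC. The row of the *Mir124a-2* hairpin gene, which does not measure the mature microRNA, had 5.18 to 10.53 in blue cones and 129.04 to 183.36 in rods, and its region lay 848 bp upstream. *Ablim1*, an actin-binding protein gene, had 853.39 to 1371.08 against 6391.93 to 7637.01 in rods, but OFF-BC had as little, at 717.25 to 1189.54. In each of the 5 the blue cone libraries lay below all rod and pan-BC libraries.

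Markers of other cell types were checked in the same RNA, since immune genes such as *Aim2* lay near members. Of 14 tested genes of the microglia list, 8 were higher in blue cones than in rods and 11 higher than in pan-BC, and none was lower in either. Their summed level was 1055 to 2568 in blue cones, 314 to 412 in rods and 328 to 394 in pan-BC, and *C1qa* of this list was nearest to a member, 12602 bp upstream, with 23.31 and 23.85 ATAC-seq counts in blue cones and at most 14.64 elsewhere. Their part in the results for *Aim2*, *Tmem176b*, *Socs3* and *Kif4* was not tested. The Müller glia list summed to 13945 to 17362 in blue cones, 2246 to 3653 in rods and 7724 to 9230 in pan-BC, with 2 of 14 genes higher than in rods, and 1 higher and 3 lower than in pan-BC. *Clu* carried that sum, and without it the ranges overlapped, at 2183 to 3568 in blue cones, 1496 to 2386 in rods and 2273 to 3002 in pan-BC. Of the bipolar list 4 of 14 were higher and 1 lower than in rods and 13 lower than in pan-BC, and *Cabp5* and *Neurod4* were nearest to a member. The region near *Neurod4* had 19.43 and 15.90 in blue cones and 22.40 and 26.35 in ON-BC, one of the 12 with a higher count elsewhere. The rod phototransduction list had 8 of 11 genes lower than in rods and none nearest to a member. Of the amacrine and horizontal list, *Gad1* was nearest to a member, and of the endothelial list, *Kdr*. No gene of the ganglion and retinal pigment epithelium lists was.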

How the data were processed

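ATAC-seq and RNA-seq were measured in the groups described above, taken from the labels. The authors deposited ATAC-seq counts per 200-bp region and RNA-seq counts per gene, both divided by size factors (unit signal), and peaks per library with −log10 q values and fold enrichment ratios to background. Per the labels and the submitters' processing notes, reads were aligned to mm10 with Bowtie2 2.2.5 or STAR 2.7.0d, and peaks were called with MACS2 2.1.1. Fragments over 150 bp were removed before calling peaks, so wider fragments add nothing to the signal. All values above 0 came out as whole reads within 0.01.

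The members and lists were chosen with earlier results of these data known. A midpoint was placed in the peaks of each library, and the nearest TSS, features and sequences were taken from RefSeq for GRCm38.p6 with Python 3.11.15 and pysam 0.24.0. Of 674 nearest genes, 616 matched an RNA row, 27 by an older symbol. RNA was tested with limma 3.58.1 (treat, trend) on log2(signal + 1) over genes passing edgeR's low-count filter (14024 of 24062) against a log2 change of 1 at an adjusted p of 0.05. The fit used all 15 libraries. In simulated data for the comparison with rods over 14024 genes, 84 of 100 genes changed 4-fold and 100 of 100 changed 16-fold were called, and 0 unchanged genes. The changed genes were drawn only from those above a minimum mean count, so this recovery does not cover genes as low as *Alx4* and *Aim2*. Unchanged genes had no true change and were tested against a log2 change of 1, so calls among them were unlikely from the outset. Alternatives were edgeR 4.0.16 and DESeq2 1.42.0 on the recovered reads, TMM scaling, other pseudocounts, no filter, other windows and each library left out. Named genes were the 15 with the largest smaller difference among those higher than in both rods and pan-BC, the 5 most reduced in both, with a TSS within 100 kb, the 8 with most members, and list genes. Same-numbered libraries of blue cones and of rods or pan-BC did not deviate together, with correlations of -0.081 to 0.081. Some items are not reported here.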

Additional observations from a re-analysis of the deposited data

Results flagged for a closer look

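Peaks of the double-sorted green cone libraries, which were not used to choose the regions, covered some of the regions open only in blue cones. Replicate 3 had a peak at 139 of the 731 and replicate 4 at 19, both above the 0.41% that a count of 0 would allow, a limit for counting error only. Over all regions 44292 of 110715 lay in a peak of replicate 3 and 30284 in one of replicate 4, so the members were covered less often than regions at large. At regions open only in rods the same libraries had a peak in 4.1% and 0.5%.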

How the results depend on the processing

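The number of regions was 477 with a −log10 q of at least 5 in both blue cone libraries and 739 to 2548 with a library left out in turn. It passed 1.5 times the reported number without blue cone replicate 1 (2548) or green cone replicate 1 (1097), where fewer libraries decide. The promoter share was 7.25% within 1000 bp on either side of a TSS. The median log2 difference was 1.02 with a pseudocount of 5 and 1.01 with CPM. With the 2 nearest genes of each region, of 811 tested genes 201 (24.8%) were higher and 43 (5.3%) lower than in rods, 171 (21.1%) higher and 189 (23.3%) lower than in pan-BC and 78 (9.62%) higher than in both, beside 11.3%, 4.63%, 13.7%, 22.7% and 2.74% of all genes. With TSSs within 50 kb alone, 60 of 294 (20.4%) were lower than in pan-BC, a share below the 22.7% of all genes. edgeR and DESeq2 gave 138 and 119 genes higher than in rods, beside 13.2% and 10.8% of all genes. With a library left out, 118 to 128 genes were higher and 18 to 25 lower than in rods, 80 to 89 higher and 95 to 106 lower than in pan-BC, and 40 to 45 higher and 7 to 11 lower than in both. *Tbx2* differed from rods by -1.26 to 0.00 with a library left out, the latter without blue cone replicate 3, and the cause was not tested. Of 926 alternatives for 58 results on named genes, 914 kept direction and side of the threshold, 9 lost the call, those of *Alx4* among them, and 2 gained one. Word shares moved with the window: TAATTA stood in 13.7% of the central 100 bp and 27.1% of 400 bp.

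Replicate numbers showed no pairing of blue cones with rods or pan-BC, as none of the 6 same-numbered pairs had an r above 0.1. Over all 30 same-numbered pairs r ran from -0.081 to 0.222, and 5 of 15 libraries correlated best with their own number. The highest r was that of ON-BC with OFF-BC replicate 2. Same-numbered ON-BC and OFF-BC libraries had the same postnatal day, and the labels do not say whether they shared animals. With the replicate block, 127 nearest genes were higher and 24 lower than in rods, 87 and 106 than in pan-BC, and 44 and 10 than in both. ATAC-seq depth, 2 to 40 reads per region at the median, limits single regions.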

Other observations

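Soft-masked repeat sequence made up a mean of 11.0% of the bases of the regions open only in blue cones, against 24.3% in those open only in rods 9.02% in those open only in green cones and 10.3% over all regions. Regions with at least 50% of their bases masked numbered 32 of 731 (4.38%), beside 3.66% of all regions and 18.7% of the rod regions. The members lay near the value of all regions by both measures.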
